A study of Mus musculus with 3 samples.

Results

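The table of plasma exosome circRNAs held 11 circRNAs from 7 genes whose proteins build the kinetochore, the mitotic spindle or the centrosome: Casc5, Zwilch, Bub1b, Cenpi, Tacc3, Cep128 and Cntln. They were selected by host gene name, with earlier results of these data known, and they are 11 of the 563 circRNAs and 7 of the 459 host genes in the table. Casc5 gave 4 circRNAs, Cep128 gave 2, and the other 5 hosts gave 1 each. Every one of the 11 is described here, and no filter on low reads was applied.

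All mice in the study were wild type C57BL/6 males, and their age is not stated. The normal (N) group was kept on basic forage. The model (M) group was fed a high-fat diet and then injected with streptozotocin (STZ), which is toxic to islet beta cells, and the model + EA group received the same diet and STZ followed by electroacupuncture (EA) at the Zusanli and Pishu points. The study asked whether EA changes circRNAs of plasma exosomes in diabetic mice, with 1 library per group. It is not stated how many mice contributed plasma to each.

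The 3 libraries are called A1, B1 and C1, as in the deposited columns, because the sources disagree on which group each one is. In GEO's sample titles A1 is normal, B1 is model and C1 is model + EA. In the comparison sheets of the study's supplement the same columns are treated as model, model + EA and normal. The reads of each library are not affected by this, but every direction between groups is, so both readings are given below. As each group is a single library, the spread between mice is unknown, differences cannot be checked on replicates and p-values are left out.

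A circRNA is a closed RNA ring, made when the spliceosome joins the end of an exon back to the start of the same exon or of one before it. A read across that back-splice junction is counted for the ring and not for the linear mRNA of the host. No treatment that removes linear RNA is described for these libraries. A junction is a single point, so its reads do not grow with the length of the ring. They place the ends of a ring and do not show which exons lie between them. The host genes serve chromosome segregation. The kinetochore is the protein assembly on each centromere that holds microtubules, and its checkpoint delays anaphase while chromosomes are unattached. The spindle is the microtubule array itself, and centrosomes are the organelles at its poles, built around a pair of centrioles. The circRNAs here come from exosomes in plasma, so their reads do not measure dividing cells, and fewer releasing cells of a type and less RNA per cell cannot be told apart.

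The back-splice junctions identify the rings, and they are shown as 15 bases of the donor exon end in lower case followed by 15 bases of the acceptor exon start in capitals, 5′ to 3′, read from GENCODE M21 transcripts on GRCm38 (mm10). The Casc5 set is shown in full because its 4 rings reuse the same exon edges.
Casc5 exon 6 to exon 2: attcagaaatttcagAAAAAAGTTTTCAAA
Casc5 exon 12 to exon 2: acaaaagattgacgaAAAAAAGTTTTCAAA
Casc5 exon 12 to exon 10: acaaaagattgacgaCACAGCGTAATAGCC
Casc5 exon 13 to exon 10: tactctgatgaagagCACAGCGTAATAGCC
Zwilch exon 7 to exon 6: tcaactgcagctctgCTGATAAAAATTACT
Bub1b exon 9 to exon 9: aagaacgaagggaagGACACCATGCAAGAT
Cenpi exon 7 to exon 5: caagatgatactctgGTCCTAAGAAAGCTT
Tacc3 exon 3 to exon 2: cttacagaaagaaaaAATGAGTCTGCATGT
Cep128 exon 14 to exon 11: gccgcacagatcgagGCACTGAAGAAACAA
Cntln exon 8 to exon 4: agccactcaggaaagACTGAATCTGTACTA
The first 2 lines share their capitals, as do the following 2, and the lines for exon 12 share their lower-case letters. The 11th ring, from Cep128 and typed as intronic in the table, has an end inside an intron, and its junction is not shown.

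The libraries differed in breadth and depth. Junction reads summed to 4125 in A1, 4372 in B1 and 2913 in C1, while 157, 140 and 320 circRNAs were read in them. The median circRNA read in a library had 25 reads in A1, 33.5 in B1 and 7 in C1, so C1 held many circRNAs at few reads each, and 92.4% of all circRNAs were read in a single library. A count of 0 allows up to 3 reads, which is 0.0727% of A1, 0.0686% of B1 and 0.103% of C1.

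The reads of the 11 circRNAs came almost wholly from B1 and C1. They held 19 reads in A1, 160 in B1 and 117 in C1, which is 0.461% (exact 95% interval 0.278 to 0.718), 3.66% (3.12 to 4.26) and 4.02% (3.33 to 4.79) of the junction reads of each library. The shares of B1 and C1 overlap in their intervals and that of A1 lies below both. These and the following intervals are Clopper-Pearson intervals. They cover counting error only, because reads without molecular identifiers can be PCR copies of 1 molecule. The members behind the shares differed: 3 circRNAs carried all reads of B1, at a median of 51, and 9 carried those of C1, at a median of 11. A1 held only Tacc3. Without Casc5 the C1 share was 2.64%.

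**Figure D1:**
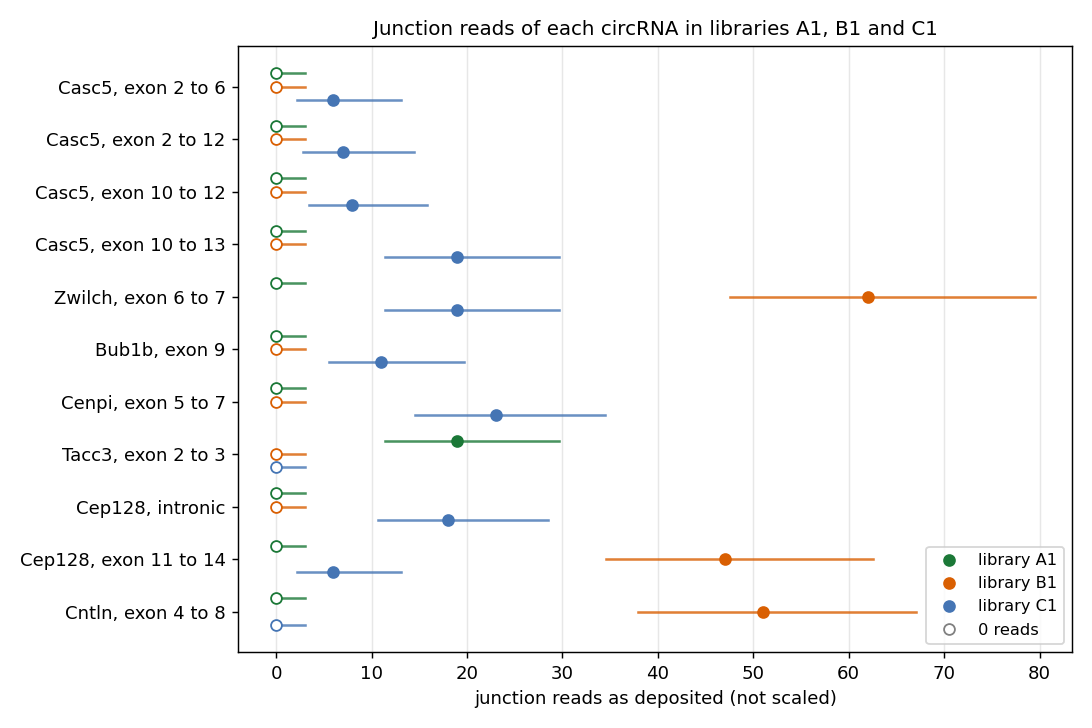
Junction reads of the 11 circRNAs (deposited counts, horizontal axis) in libraries A1, B1 and C1, with lines for exact 95% Poisson intervals and a line up to 3 reads for a count of 0. Zwilch (62), Cntln (51) and Cep128 exons 11 to 14 (47) carry B1, 9 circRNAs between 6 and 23 reads carry C1, and Tacc3 (19) is the only one in A1.

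Outer kinetochore and checkpoint hosts were read in C1, and Zwilch had more reads in B1 (62) than in C1 (19). Casc5, named Knl1 in GENCODE, is the large outer kinetochore scaffold on which the checkpoint proteins Bub1 and BubR1 gather. Its 4 circRNAs were read in C1 alone, with 0 reads in A1 and B1. The ring of exons 10 to 13 (chr2:119076936-119086650, plus strand) had 19 reads in C1, 0.652% of the library (0.393 to 1.02). The ring of exons 10 to 12 (chr2:119076936-119081625) had 8 reads, 0.275% (0.119 to 0.540). The ring of exons 2 to 12 (chr2:119057281-119081625) had 7 reads, 0.240% (0.0967 to 0.494), and the ring of exons 2 to 6 (chr2:119057281-119064097) had 6 reads, 0.206% (0.0756 to 0.448). The ring of exons 10 to 13 had the most reads, but its interval overlaps those of the other 3, which differed from each other by less than their counting intervals.

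The 4 Casc5 rings were built from 2 start sites and 3 end sites, as the junction letters above show. The start of exon 10 gave 27 of the 40 Casc5 reads (67.5%, 50.9 to 81.4) and the ring of exons 10 to 13 alone gave 19 (47.5%, 31.5 to 63.9). Casc5 as a host held 1.37% of C1. Having 4 or more circRNAs was rare, at 6 of the 459 hosts (1.31%), whereas shared ends were common among the 72 hosts with several circRNAs, of which 34 (47.2%) had them. The rings differ in size if all annotated exons between their ends are kept, which junction reads do not show. On that basis the ring of exons 2 to 12 takes in exon 8, which is 4497 nt long. Its 5238 nt of spliced sequence was then the longest among the 462 circRNAs of the table that start and end at exon edges. The others would measure 266 nt (exons 2 to 6), 283 nt (exons 10 to 12) and 374 nt (exons 10 to 13). Only the ring of exons 10 to 13 carried a circBase identifier, mmu_circ_0001059, and that of exons 10 to 12 carried an identifier from another earlier set, while those from exon 2 carried none.

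**Figure D2:**
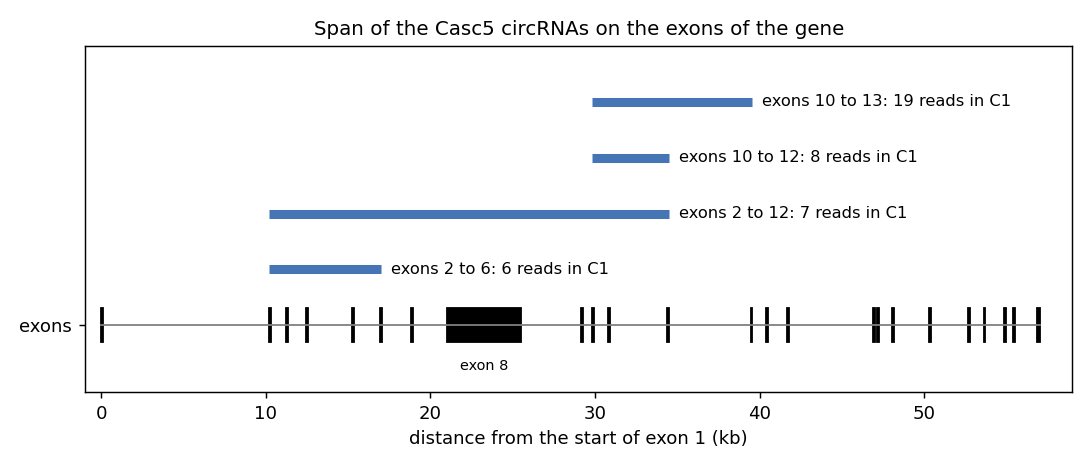
Map of Casc5 (Knl1), with the distance from the start of exon 1 in kb on the horizontal axis, its 24 exons as boxes and the 4 circRNAs as bars labelled with their reads in library C1. The bars start at exon 2 (6 and 7 reads) or at exon 10 (8 and 19 reads), and 2 of them end at exon 12.

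Zwilch is a subunit of the RZZ complex, which brings dynein and Mad1 to kinetochores that lack microtubules. Its single circRNA (chr9:64160821-64161441, minus strand, exons 6 and 7 of 19, 227 nt) had 0 reads in A1, 62 in B1 and 19 in C1. It was the most read of the 11 circRNAs and ranked 4th of 140 in B1, where it made up 1.42% of the reads (1.09 to 1.81) against 0.652% in C1. Scaled with the authors' factors, it was 3.38-fold higher in B1 than in C1 (1.99 to 5.98), and 1.59-fold with the TMM factors of edgeR or 1.63-fold with medians of ratios, both under the 2-fold call. Bub1b encodes BubR1, a part of the mitotic checkpoint complex that inhibits the anaphase promoting complex. Its circRNA is exon 9 alone (chr2:118617706-118617935, plus strand, 230 nt), the only ring of 1 exon in the set, and it had 0, 0 and 11 reads in A1, B1 and C1, 0.378% of C1 (0.189 to 0.675).

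Cenpi belongs to the inner kinetochore, the constitutive network that sits on centromeric chromatin. Its circRNA (chrX:134311991-134318132, plus strand, exons 5 to 7 of 23, 365 nt) had 0 reads in A1, 0 in B1 and 23 in C1. This was the highest of the set in C1, 0.790% of the library (0.501 to 1.18), and ranked 9th of 320. It carried no earlier identifier. In C1 it was thus the only one of the 11 with at least 20 reads, a level reached by 4.26% of all circRNAs in that library.

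Tacc3 stands apart as the only one of the set read in A1. The protein binds microtubules with Ckap5 and clathrin and steadies the kinetochore fibres of the spindle. Its circRNA (chr5:33661222-33661645, plus strand, exons 2 and 3 of 15, 288 nt) had 19, 0 and 0 reads in A1, B1 and C1. That put it at rank 101 of 157 in A1, in the lower part of that library, although 19 reads ranked 25th in C1 for the Casc5 ring with the same count.

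The exonic rings of the centrosome hosts were highest in B1. Cep128 is a protein of the subdistal appendages of the mother centriole. Its ring of exons 11 to 14 (chr12:91289489-91299077, minus strand, 447 nt) had 0 reads in A1, 47 in B1 and 6 in C1, which is 1.08% of B1 (0.791 to 1.43) and 0.206% of C1, an 8.11-fold higher scaled level in B1 (3.46 to 23.2). This fold was 5.22 when scaled by total reads, 3.92 with medians of ratios and 3.82 with TMM. Cntln encodes centlein, which helps hold centrosomes together. Its ring of exons 4 to 8 of 26 (chr4:84956276-84979521, plus strand, 810 nt) had 0, 51 and 0 reads in A1, B1 and C1, 1.17% of B1 (0.870 to 1.53), where it ranked 10th of 140 and Cep128 16th.

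The other Cep128 circRNA, typed as intronic in the table (chr12:91251077-91255739, minus strand, 4663 nt), did not share the library of the exonic ring. It had 0, 0 and 18 reads in A1, B1 and C1, 0.618% of C1 (0.367 to 0.975). It begins at the edge of exon 17, holds that exon's 165 nt (3.54% of its span) and stops 4498 nt into the 21354-nt intron that follows. It lies 33749 nt from the exonic ring and shares no end with it.

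**Figure D3:**
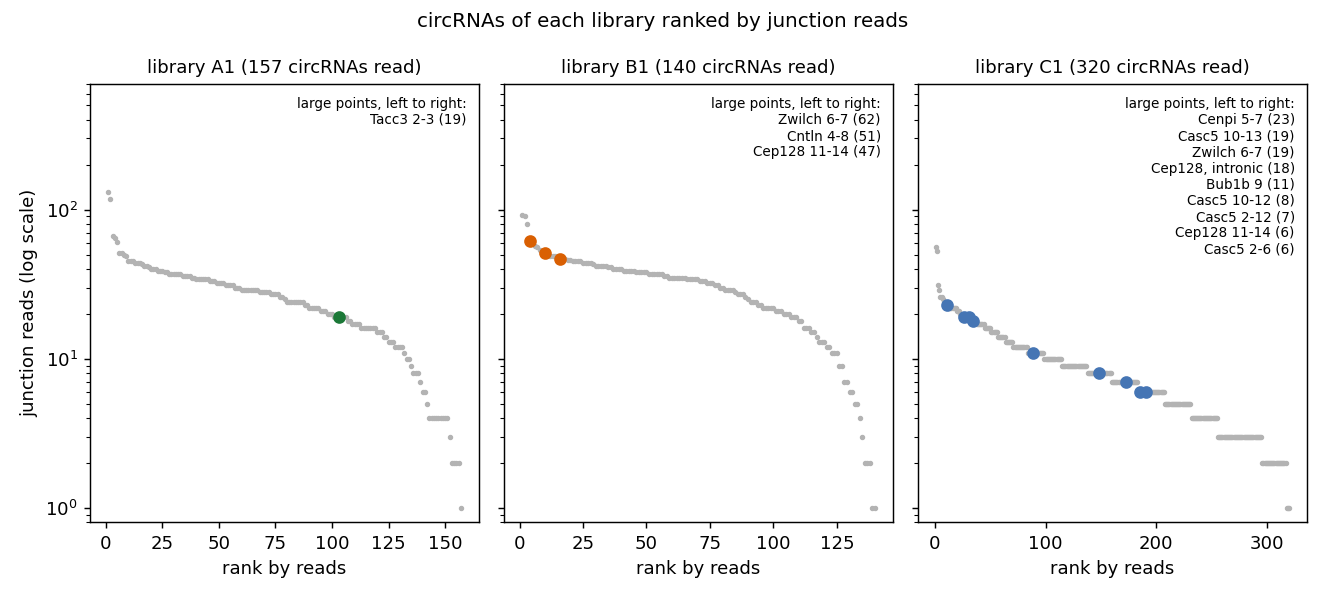
All circRNAs read in each library, ranked by reads (horizontal axis, rank; vertical axis, junction reads on a log scale), with the circRNAs of the 7 hosts as large points named with their reads. In B1 all 3 lie at the top of the range, at ranks 4, 10 and 16 of 140, whereas in C1 they spread from rank 9 (Cenpi, 23 reads) to rank 184 (6 reads) of 320.

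The plot of ranked reads is to be read against the whole of each library. In C1, 9 of the 11 (81.8%) were read, against 56.8% of all circRNAs. At a minimum of 10 reads the counts were 5 of 11 (45.5%) against 20.2%. In B1 the 3 members (27.3%) stood beside 24.9% of all circRNAs, and all 3 had at least 20 reads, as did 75.7% of the circRNAs read in B1 (18.8% of the table). In A1 the 1 member (9.09%) stood beside 27.9%. Rings of 1 host are not independent, and without Casc5 the hosts read in C1 were Zwilch, Bub1b, Cenpi and Cep128.

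For the comparisons a circRNA was called at a 2-fold difference of scaled reads, with 0.1 reads in place of 0. The 3 pairs share libraries, so their calls are given side by side and not compared with each other. In C1 against A1, 9 of the 11 were called higher in C1, where 53.6% of all circRNAs were, and 1, Tacc3, was called lower, where 27.0% were. Cntln was read in neither library. Most of these calls rest on a 0 in A1, so folds are bounds against 3 reads, with the other count taken as exact. Cenpi was at least 6.01-fold higher in C1, Zwilch and the Casc5 ring of exons 10 to 13 at least 4.97-fold and the intronic Cep128 circRNA at least 4.70-fold. Bub1b reached at least 2.87-fold, and the 3 lesser Casc5 rings and the exonic Cep128 ring at least 1.57-fold to 2.09-fold. Exact intervals, which take in the counting error of both libraries, began lower. They began at 4.51 for Cenpi, 3.66 for Zwilch and the Casc5 ring of exons 10 to 13, and 3.45 for the intronic Cep128 circRNA. The intervals began at 1.97 for Bub1b and at 0.923 to 1.34 for the 3 lesser Casc5 rings and exonic Cep128. Equal levels thus lie within the intervals of the Casc5 ring of exons 2 to 6 and of exonic Cep128. Tacc3 was at least 8.08-fold higher in A1, a bound that fell to between 2.61 and 6.33 under the other scalings. Its exact interval began at 5.95. An exact interval wholly beyond 2-fold in favour of C1 was found for 4 of the 11 (36.4%), against 13.0% of the table. With Casc5 left out, 5 of 7 were called higher.

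In C1 against B1 the set went both ways. The 7 called higher in C1 were the 4 Casc5 rings, Bub1b, Cenpi and the intronic Cep128 circRNA, beside a background of 51.7% of all circRNAs. The 3 called lower in C1 were Zwilch, Cntln and the exonic Cep128 ring, beside 23.1%. Tacc3 was read in neither. Against 3 reads, Cenpi was at least 7.41-fold higher in C1, the Casc5 ring of exons 10 to 13 at least 6.12-fold, the intronic Cep128 circRNA at least 5.80-fold and Bub1b at least 3.54-fold. Cntln was at least 17.6-fold higher in B1, or at least 8.28-fold with TMM. Exact intervals began lower, at 5.55, 4.51, 4.25 and 2.43 for the former 4 and at 13.8 for Cntln. Exact intervals beyond 2-fold were found for 4 of the 11 in favour of C1 (36.4%, against 17.9% of the table) and 2 of the 11 in favour of B1 (18.2%, against 20.1%). With Casc5 left out, 3 of 7 circRNAs were called higher in C1, a smaller share than the table's 51.7%.

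In B1 against A1 the calls concerned 4 circRNAs, as the other 7 were unread in both. Zwilch, Cntln and the exonic Cep128 ring were called higher in B1, beside 22.6% of all circRNAs, at least 16.8-fold, 13.8-fold and 12.7-fold. Tacc3 was called lower, beside 25.9%, at least 7.81-fold higher in A1. Exact intervals began lower, at 13.2 for Zwilch, 10.8 for Cntln, 9.94 for the exonic Cep128 ring and 5.75 for Tacc3. All 4 also had exact intervals beyond 2-fold, which was usual in this pair, since 90.6% of the circRNAs called higher and 87.0% of those called lower had them (20.4% and 22.6% of the table).

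Across all circRNAs read in a pair, the median log2 ratio was 4.97 in C1 against A1, 5.27 in C1 against B1 and -4.62 in B1 against A1. Those of the 7 hosts had medians of 6.20 (10 read), 6.18 (10 read) and 8.63 (4 read). These ratios depend on the value put in place of 0 and are no bounds on a change.

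Read by group, the counts depend on the source. By GEO's titles, 3 circRNAs were higher and 1 lower in the M group than in the N group, 7 higher and 3 lower in model + EA than in model, and 9 higher and 1 lower in model + EA than in normal. By the comparison sheets, model against normal gave 1 higher and 9 lower, model + EA against model gave 3 higher and 1 lower, and model + EA against normal gave 3 higher and 7 lower. Thus Zwilch, Cntln and exonic Cep128 were high in the model library by the titles and in the model + EA library by the sheets, and the Casc5 rings were found in the model + EA library by the titles and in the normal library by the sheets.

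The Cep128 and Zwilch rings were also targets of qRT-PCR in the study, and its primers were placed on the rings to see which one each pair counts. The primers are shown 5′ to 3′ in lower case.
Cep128 forward: ggaagtgaagcggtgcat
Cep128 reverse: ccagttggctcttctcgg
Zwilch forward: cactgttgccccatcaca
Zwilch reverse: gcaaagcctctggctgtc
On the Cep128 ring, counted from 1 at the start of exon 11, the forward primer covers bases 384 to 401 in exon 14 and the reverse primer bases 74 to 91 across exons 11 and 12. On the Zwilch ring, counted from the start of exon 6, the forward primer covers bases 128 to 145 and the reverse primer bases 74 to 91, both in exon 7. Each pair points away from its partner on the linear transcript and meets through the back-splice, giving products of 155 nt for Cep128 and 191 nt for Zwilch. The Cep128 pair thus reads the exonic ring (0, 47 and 6 reads in A1, B1 and C1) and not the intronic one (0, 0 and 18).

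The rings were then compared with the table for features that the choice by name did not use. Of the 11, 10 (90.9%) start and end at annotated exon edges, against 82.1% of all 563, and 6 (54.5%) carried an earlier identifier, against 60.9%. Their median spliced length was 326 nt and their median exon number 3.50, against 376 nt and 3. No test was run on these features, and the 5238-nt Casc5 ring lies far from the median length.

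The median intron before the rings was shorter than in the table, again without a test. It was 2332 nt for the 10 exonic members, against 8782 nt for all exon-edge circRNAs, and this intron was under 3000 nt for 60.0% of the members, against 24.3%. The intron after the ring had a median of 4566 nt, against 5955 nt. The upstream introns of 3 of the 10 were longer than the table's median, those of Cep128 and of both Casc5 rings from exon 2 (10057 nt). The members ranged from the 565 nt before exon 10 of Casc5, 1122 nt before Zwilch and 1618 nt before Cenpi to the 26437 nt before and 22402 nt after the Cep128 ring. With 1 median per host, the upstream value was 2494 nt for the 7 hosts, against 8646 nt for 385 hosts. The GC share was 39.6% against 45.6%, but 44.8% against 46.0% with 1 median per host, as the 4 Casc5 rings, at 37.5% to 38.9%, then count once.

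**Figure D4:**
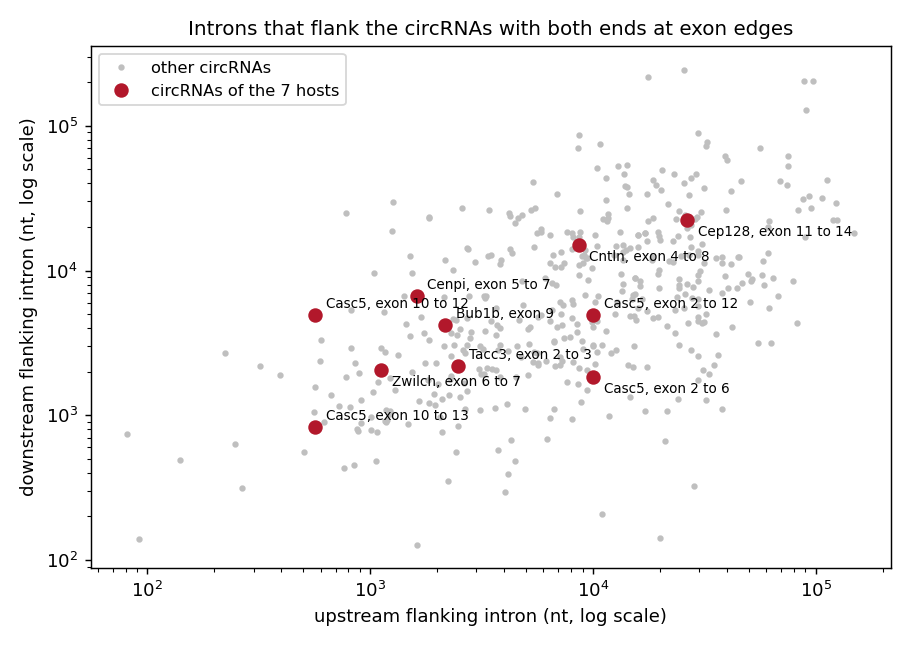
Length of the intron before each ring (horizontal axis) and after it (vertical axis), in nt on log scales, for circRNAs that start and end at exon edges, with the 10 of the 7 hosts as large points. Upstream introns under 3000 nt are found for 60.0% of the large points and 24.3% of all points, and Cep128 has the longest of the 10 on both sides, at 26437 and 22402 nt.

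The start codon of the host lies in 3 rings: both Casc5 rings from exon 2, with 16 nt of 5′ UTR, and the Tacc3 ring, with 1 nt. This is 30.0% of the 10, against 20.6% of all exon-edge circRNAs. Read from that codon around the circle, the Casc5 ring of exons 2 to 6 meets a stop after 115 codons, or 1.30 laps. The Casc5 ring of exons 2 to 12 and the Tacc3 ring have lengths divisible by 3, as do the Cep128 and Cntln rings (40.0%, against 31.2%), and no stop codon was met in that frame in either of the former. These are readings of the annotated letters with all exons between the ends kept, and no protein was measured.

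Of the 11, only Zwilch and the exonic Cep128 ring were read in more than 1 library, both with 0 in A1, and 19 circRNAs of hosts outside the 7 had that pattern. By distance of log2(scaled reads + 1) over the 3 libraries, the nearest to Cep128 were circRNAs of Pde5a (0, 45 and 5 reads in A1, B1 and C1; distance 0.231), Optn (0, 49 and 4; 0.489) and Mbd2 (0, 34 and 7; 0.495). Nearest to Zwilch were St3gal5 (0, 42 and 10; 1.02), Btaf1 (0, 34 and 10; 1.21) and Cep128 itself (1.56). With 3 points each, this likeness is a description of these libraries only.

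Other kinetochore, spindle and centrosome genes were looked up from lists of known components. A further 21 hosts gave 27 circRNAs, of which 7 were read in A1, 3 in B1 and 18 in C1, with 113, 86 and 126 reads. Called higher and lower were 17 and 6 in C1 against A1, 18 and 3 in C1 against B1, and 3 and 7 in B1 against A1. As shares of the 27 these are 63.0% and 22.2%, 66.7% and 11.1%, and 11.1% and 25.9%. The table's shares were 53.6% and 27.0%, 51.7% and 23.1%, and 22.6% and 25.9%, and the lower calls against A1 lie near them. Exact intervals beyond 2-fold in favour of C1 were found for 2 of the 27 against A1 and 4 against B1, where the table had 13.0% and 17.9%. In favour of A1 and B1 over C1 they were found for 5 and 3, where the table had 23.1% and 20.1%. Among these 27, 63.0% were read in C1 alone, against 49.7% of the table.

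Of the kinetochore and checkpoint hosts outside the 7, most were read in C1. These were Nup133 (14 reads) and Ahctf1 (9 and 2 reads in 2 rings), nucleoporins that also sit at kinetochores, Pafah1b1 (11), the dynein regulator LIS1, Ttk (9), the checkpoint kinase Mps1, Cenph (8), a partner of Cenpi in the inner kinetochore, and Mad1l1 (5), the Mad1 protein to which RZZ leads. Spc24, of the Ndc80 complex, had 6 reads in A1 and 5 in C1. Zfp207, the Bub3 chaperone BuGZ, had 1 ring with 18 reads in B1 and another with 3 in C1. With the members included, 16 of the 18 circRNAs of this list (88.9%) were read in C1, against 56.8% of the table, but 7 of the 16 are the members themselves. A1 and B1 held 2 each.

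More spindle circRNAs were read in C1 than in A1 or B1, as in the table. Their reads were most in A1, at 85, against 39 in B1 and 53 in C1. Kif14, a mitotic kinesin, had 30 reads in A1, and Nusap1, a spindle microtubule protein, had 36 in A1 and 11 and 3 in C1 from different rings. Kif23, the kinesin of centralspindlin, had 12 and 3 reads in C1, Tacc1, a relative of Tacc3, had 9, Ect2, the cytokinesis exchange factor, had 6 and Dlgap5, a spindle assembly factor, had 3. Ckap5, the microtubule polymerase that binds Tacc3, had 1 ring with 39 reads in B1 and another with 6 in C1, and so its rings did not share the library of Tacc3. The 12 circRNAs of this list numbered 3 in A1 (25.0%, against 27.9% of the table), 1 in B1 (8.33%, against 24.9%) and 8 in C1 (66.7%, against 56.8%).

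The centrosome hosts were spread evenly, with 3 of 8 circRNAs (37.5%) read in each library. Outside Cep128 and Cntln, Ift57, an intraflagellar transport protein, had 15 reads in A1, the kinase Nek1 had 14 and Cep112 had 8. Odf2, which also belongs to the appendages of the mother centriole, had 29 reads in B1, and Cep135, of the centriole core, had 7 in C1. The 127 centrosome reads of B1 thus came from Cep128, Cntln and Odf2.

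**Figure D5:**
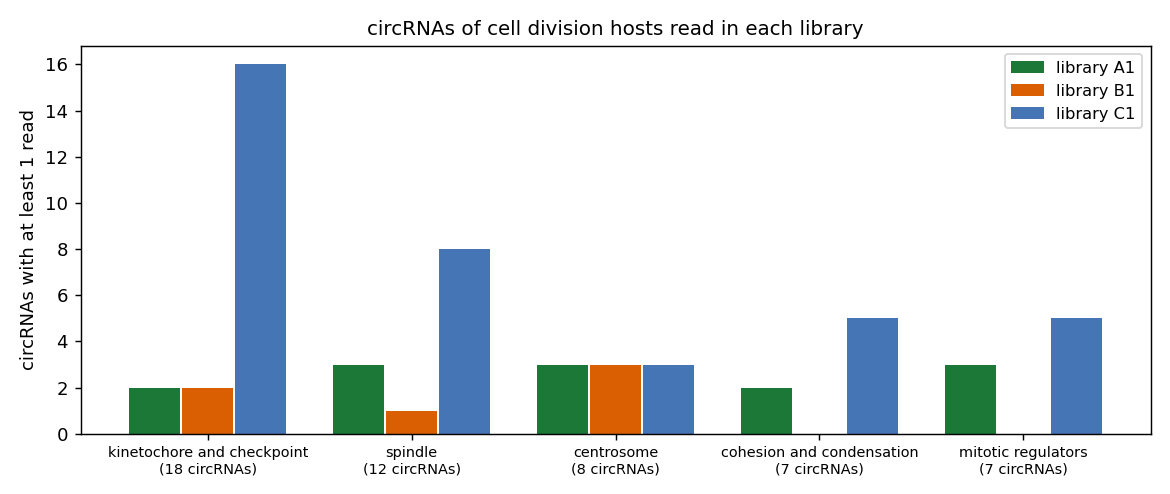
Number of circRNAs with at least 1 read (vertical axis) in libraries A1, B1 and C1 for 5 lists of cell division genes, members included. Kinetochore and checkpoint hosts stand at 2, 2 and 16 and spindle hosts at 3, 1 and 8, whereas centrosome hosts stand at 3 in each library.

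Markers of blood cells and other sources were looked for as circRNA hosts, which is a limited check because linear transcripts are not in the table. Short lists of platelet (9 genes), B cell (8), T cell (10), myeloid (8), hepatocyte (6), islet (6) and exosome (6) markers held no host of the table. Of 16 erythroid genes, 5 were hosts, with 7 circRNAs. They summed to 6 reads in A1, 50 in B1 and 45 in C1, of which 43 in B1 came from the globin gene Hbb-bs and 19, 13 and 6 in C1 from rings of Epb41, a membrane skeleton protein listed under its older symbol Epb4.1. Blood cell genes outside the lists, noted after their values were seen, were Gp6, the platelet collagen receptor (37 reads in A1), the erythroid genes Slc25a37 (21 and 5), Car2 (12) and Dmtn (8) in C1, and Hemgn (11) in A1. The other globin junctions on the list were read in every library, with 4, 5 and 3 reads in A1, B1 and C1 for Hbb-bt and 2, 2 and 1 for Hba-a1. Most reads of the erythroid list thus lay in B1, from Hbb-bs, and in C1, from Epb41. These libraries also held most reads of the 7 hosts, and the part of erythroid RNA in these results was not tested.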

How the data were processed

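Exosomal RNA of plasma from 3 groups of mice was depleted of rRNA and made into stranded libraries. Per the labels and methods, the authors used cutadapt 1.9.3 for trimming, STAR 2.5.1b for alignment to mm10 and DCC to call circRNAs. The deposited counts are junction reads per circRNA. The log2 values deposited by the authors match, to within 5.3e-15, counts multiplied by 1.28 in A1, 1.03 in B1 and 1.00 in C1, with 0.1 reads for 0. Only these factors were taken from them, and their origin is not stated. The predicted lengths in nt are also as deposited by the authors.

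Circles were placed on the transcripts of GENCODE M21 (GRCm38). Spliced lengths, exon numbers, GC shares and reading frames count every annotated exon between the ends, as inner exons were not observed. Each ratio has an exact (Clopper-Pearson) 95% interval, computed from how reads divide between both libraries. A circRNA was called at 2-fold, and a count of 0 was floored at 3 reads for bounds, which take the other count as exact. Total junction reads per library were 4125, 4372 and 2913, which limit the precision. Calls and intervals were also run on simulated Poisson counts with known folds, as a check of the computation. Apart from these folds both simulated libraries had the same scaled mean, so circRNAs wholly absent from 1 library were not simulated. Python 3.11.15, scipy 1.17.1 and edgeR 4.0.16 were used. The 7 hosts and the gene lists were chosen with earlier results of these data known. Listed genes were matched to hosts by symbol or by the RefSeq synonyms of GRCm38. Named are all circRNAs of the 7 hosts, all other hosts of the kinetochore, spindle and centrosome lists except 1 that is counted but not reported here, and the 3 nearest circRNAs of any host to each member read in several libraries. Alternatives changed the value for 0, the scaling, read minimum, call rule, counting unit, group source, denominator, detection rule and transcript. The values of the authors' comparison sheets were not used, only the groups that their names give.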

Additional observations from a re-analysis of the deposited data

How the results depend on the processing

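No direction between libraries reversed under the settings run. Most could hardly do so, because 1 library of the pair had 0 reads, and only Zwilch and exonic Cep128 had reads in both B1 and C1. The directions between groups depend on the source of the groups. The count of circRNAs higher in C1 than in A1 (9 of 11) became 5 with at least 10 reads, 1 with at least 20 reads and 4 with an exact interval beyond 2-fold. It was 5 of 7 hosts with reads summed per host and 5 of the 6 circRNAs with earlier identifiers. The count higher in C1 than in B1 (7 of 11) became 4, 1 and 4 under the former settings. It was 3 of 7 hosts and 3 of the 6 circRNAs under the latter. With Casc5 left out, which was chosen after seeing the data, these counts were 5 and 3 of 7 circRNAs and the C1 share was 2.64%. The 1 circRNA lower in C1 than in A1 and the 1 lower in B1 than in A1, both Tacc3, became 0 at 20 reads and 0 with earlier identifiers only. Tacc3 had 19 reads and no earlier identifier, so these settings leave it out. The groups of the comparison sheets gave 1 higher and 9 lower (model against normal), 3 and 1 (model + EA against model) and 3 and 7 (model + EA against normal). The B1 share was 4.67% of exonic reads and 2.46% without the 5 most read circRNAs, and 5 circRNAs were detected in C1 at 10 reads.

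Other scalings raised C1 over A1 by 0.35 to 1.63 and C1 over B1 by 0.05 to 1.09 on the log2 scale, which took the bounds of the 6-read circRNAs in C1 over A1 from 1.57 to between 2 and 4.86. Bounds in favour of A1 or B1 over C1 fell, for Tacc3 from 8.08 to as low as 2.61 and for Cntln from 17.6 to as low as 8.28, and exonic Cep128 in B1 over C1 fell from 8.11 to as low as 3.82. Zwilch in B1 over C1 fell to 1.59 (TMM) and 1.63 (median of ratios). With 3 reads in place of 0, 6 were higher in C1 in each pair. In 79 further cases a count stayed within 1.5 times or a share within its interval. No paired analysis was possible because each group has 1 library. At these depths a count of 0 leaves up to 3 reads possible in a library.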

Other observations

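Hosts on the list for chromosome cohesion and condensation, which the report does not describe, were each read in a single library per ring. Stag2, a cohesin subunit, had 1 ring with 34 reads in A1 and another with 3 in C1. Wapal, which releases cohesin from chromatin, had a ring with 28 reads in A1 and one with 10 in C1, and both end at the same position. Smc3 (4 reads), Smc6 (4) and Smc4 (3) were read in C1 alone. None of the 7 circRNAs of this list was read in B1.

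Among the mitotic regulators, Tlk1, a chromatin kinase, had 4 rings, of which 1 had 131 reads in A1 and 19 in C1 and the other 3 had 9, 7 and 3 reads in C1 alone. Lats2, a Hippo pathway kinase, had 29 reads in A1, Lin54, a subunit of the DREAM complex, had 28 in A1, and Nek7, a kinase of the centrosome cycle, had 3 in C1. This list also held no read in B1.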
